A study of Homo sapiens with 8 samples.

Results

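A set of 40 spliceosome genes was followed in a genome-wide CRISPR knockout screen. The genes encode proteins of the U4/U6.U5 tri-snRNP, the PRP19 complex (also called NTC) and the helicases and step factors that act with them. Members were taken as every guide RNA whose target symbol was one of the 40 names. Of these, 39 had guides, 232 in all, which is 6 guides per gene and 4 for AQR, out of 18913 genes targeted by the library. LSM8 had no guide under that symbol. NHP2L1 is the older symbol of SNU13.

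The screen used MB157R cells, from a triple-negative breast cancer, which had become resistant to a γ-secretase inhibitor (GSI) through long culture with it and stably expressed Cas9, so every group carried both features. Cells were transduced with the human GeCKOv2 library, selected with puromycin and combined. From this 1 pool, 2 aliquots were stored as T0, and the rest was grown for 14 days as 3 cultures with the solvent DMSO and 3 cultures with the GSI LY3039478 at 10 µM. The count of a guide in genomic DNA measures how many cells carry it, and a guide against a gene that the cells need to grow becomes rarer with time. The p-values of single guides measure the spread between cultures, or between T0 aliquots, of this single pool. The main gene p-values, described below, rest on how the guides of a gene rank by those p-values. They do not measure that spread directly. How many target cells lost both copies of a gene was not measured.

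Total counts per library ranged from 12.1 M to 18.2 M (M, 1e+06). In GSI replicate 1, a guide against VPS33B alone took 38.8% of the counts. The T0 aliquots stood apart from each other. Of the 232 member guides, 15 (6.47%) had a count of 0 in T0 replicate 1 and 33 (14.2%) in T0 replicate 2. Of all guides, 5.12% and 11.5% had a count of 0 in these aliquots. Over the tested member guides, the median difference between the T0 aliquots was 1.33 on the log2(normalized count + 1) scale, against 0.896 to 1.04 between DMSO cultures and 0.761 to 0.878 between GSI cultures. Over all tested guides it was 1.25, against 0.777 to 0.831 and 0.625 to 0.701. Where fold changes were refitted without single libraries, the libraries behind the widest shifts are named beside the values. Reads came from PCR without molecular identifiers, so depth sets the counting error only.

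Splicing removes introns from pre-mRNA in steps that depend on a changing set of RNA and protein partners. The tri-snRNP brings the U4, U5 and U6 small nuclear RNAs to an intron already marked by U1 and U2. U4 is then unwound from U6, the PRP19 complex joins and stabilises the catalytic RNA core, and DEAH-box helicases drive the remodelling before and after each of the cleavage and joining reactions. Since most human genes contain introns, many of these proteins are needed by dividing cells in general.

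Only guides whose raw counts averaged 10 or more across the 8 libraries were tested, which kept 224 of the 232 member guides and 116852 of 119461 guides in all. All 39 genes with guides had at least the 4 tested guides required. Each gene is given the middle log2 fold change among its tested guides, with the SD of those guides as its error. Guides of a gene share a target and are not replicates. Gene p-values come from robust rank aggregation (RRA), which asks whether the guides of a gene sit unusually near the top of the ranking of all guides, on the low and the high side apart, with p from the exact distribution of its score. They were adjusted over all 18570 genes tested, and a gene was called at an adjusted p under 0.05.

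With DMSO, guides against the members were mostly less abundant than at T0. The median log2 fold change of the 39 genes was −0.53, against 0.005 over all genes, 0.12 over 366 olfactory receptor genes, a family not needed for the growth of such cells, and 0.25 over 999 tested non-targeting guides. A negative fold change was found for 31 of the 39 members (79.5%), against 49.6% of all genes. At an unadjusted p under 0.05, 10 members (25.6%) were on the low side, against 6.19% of all genes, and 0 were on the high side, against 5.28% of all genes. The 10 were PRPF4, NHP2L1, LSM4, LSM5, LSM7, SMU1, PRPF19, BUD31, DHX15 and DHX38. Without T0 replicate 1 the median was −0.24 for the members and 0.23 for all genes, with 6 members on the low side. Without T0 replicate 2 it was −0.31 and 0.10, with 9 members.

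No member passed the adjusted threshold in this comparison. RRA on edgeR guide tests called 0 of the 39, against 6 of all genes (0.0323%). The lowest adjusted p among the members was 0.14, for PRPF4. RRA on DESeq2 guide tests and limma on mean log2 counts per gene also called 0 members, against 7 and 1 of all genes. With edgeR on counts summed per gene 1 was called, PRPF4, against 101 of all genes. The sum of PRPF4 included guide 38681 of library part B, with raw counts of 583 and 444 at T0 and 1, 1 and 0 with DMSO. The sum was not refitted without this guide. Of the 224 member guides, 28 (12.5%) were lower at an unadjusted p under 0.05, against 3.55% of all guides, and 4 (1.79%) were higher, against 4.19%. After adjustment 0 member guides were called by edgeR and 24 by DESeq2 in either direction, against 0 and 6663 of all guides.

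The groups were also set against each other without a test, by the mean log2(normalized count + 1) over the guides of a gene. On this scale 12 members (30.8%) were lower in all DMSO cultures than in both T0 aliquots, against 8.67% of all genes, and 1 (2.56%), PRPF31, was higher in all of them, against 24.2%. With 3 against 2 libraries an exact permutation test cannot give a p under 0.1. Averaged over all 39 members and set to the T0 mean, the level was 0.399 and −0.399 in T0 replicates 1 and 2 and −0.377, −0.573 and −0.433 in DMSO replicates 1 to 3. The DMSO cultures thus overlapped T0 replicate 2 on this scale. Over all genes the DMSO level was 0.314 ± 0.047 (SD, n = 3), above both T0 aliquots.

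**Figure D1:**
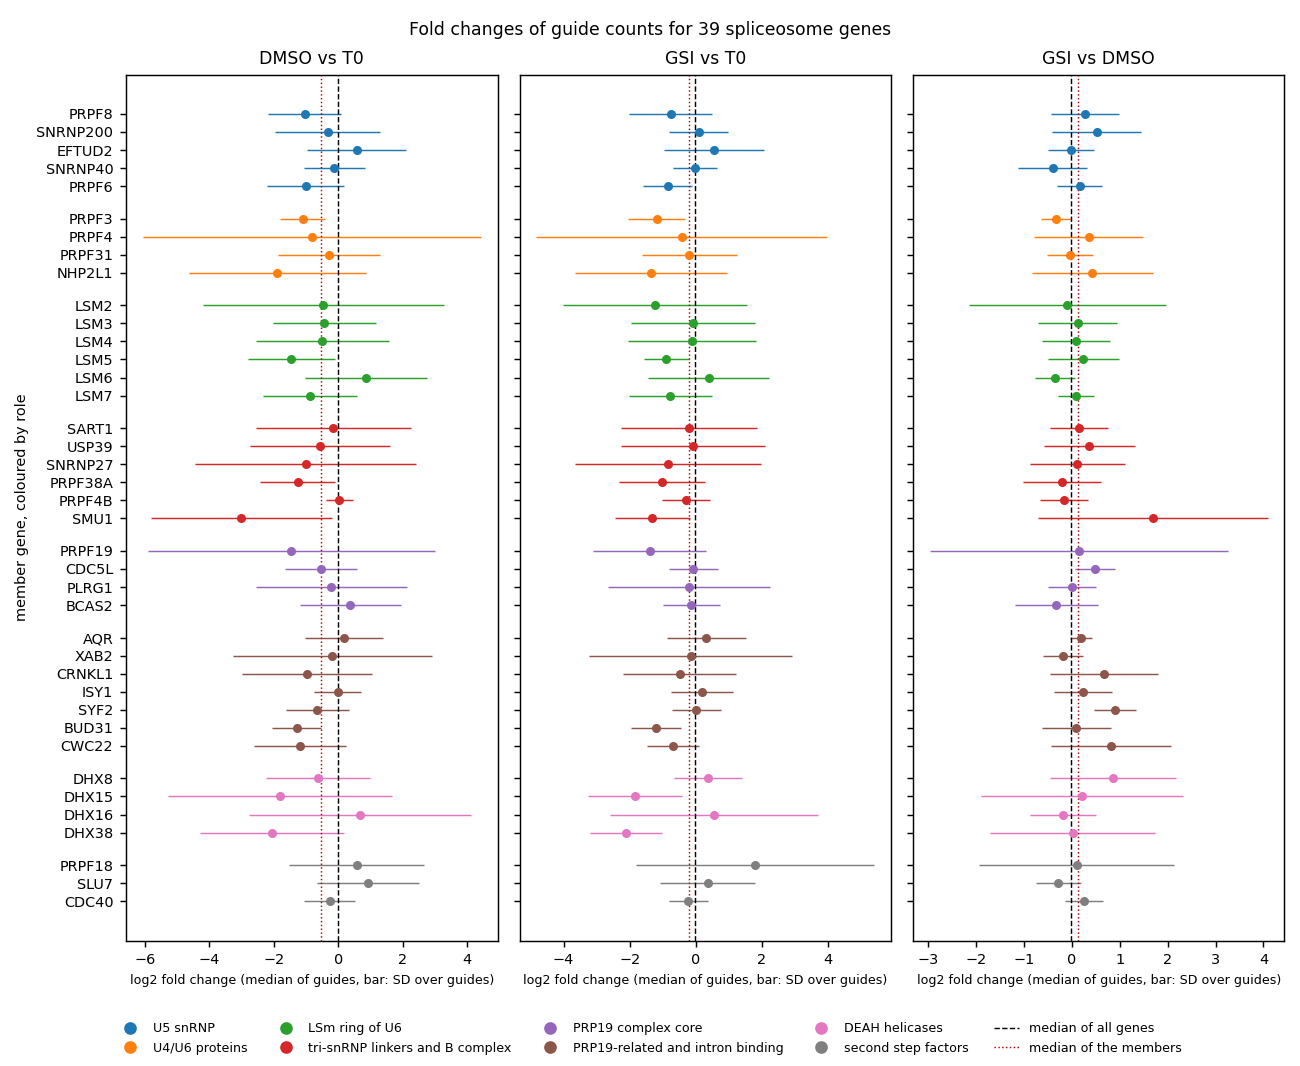
Log2 fold change of the 39 members (rows, coloured by role) in DMSO against T0, GSI against T0 and GSI against DMSO, with the SD over guides as bars, the median of all genes as a dashed line and the median of the members as a dotted line. The members' median lies at −0.53, −0.22 and 0.13 in the 3 panels, and most bars are wider than the fold change they belong to.

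Among the U5 snRNP proteins, fold changes in DMSO against T0 ran from −1.05 to 0.57, 4 of 5 were negative and 0 passed the unadjusted threshold. PRPF8, the scaffold that holds the catalytic core, had the lowest value and was named after its values were seen. Its mean normalized count per guide was 138 and 194 in the T0 aliquots and 75.2, 70.1 and 80.5 in DMSO replicates 1 to 3. All DMSO cultures lay below both T0 aliquots, at a fold change of −1.05 ± 1.13 (SD over 6 guides, exact RRA p = 0.0504). EFTUD2, the GTPase of the particle, was the U5 protein with a positive value.

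The U4/U6 proteins had the lowest median of the tri-snRNP groups, −0.96 over 4 genes, all of them negative. PRPF4, which holds U4/U6 together with PRPF3, lies on chromosome 9 (113275642 to 113294009, GRCh38). Its mean normalized count was 120.2 and 169 at T0 and 46.2, 22.7 and 46.5 with DMSO, so the groups did not overlap. This mean includes guide 38681 of part B, at 487.8 and 421.4 at T0 and 1.10, 0.90 and 0 with DMSO. Of the single guides, only 38681 and 38683 of part B were below both T0 aliquots in all DMSO cultures. The fold change of PRPF4 was −0.82 ± 5.23 (SD over 6 guides, exact RRA p = 0.000307, adjusted p = 0.14). It was −1.55 without T0 replicate 1 and 0.18 without T0 replicate 2.

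The p of PRPF4 rested on 1 guide. Guide 38681 of library part B had raw counts of 583 and 444 at T0 and 1, 1 and 0 in DMSO replicates 1 to 3, the first of all guides to genes in the ranking of the low side. With GSI its raw counts were 4, 7 and 6, above those of all DMSO cultures and far below T0. The other guides of PRPF4 were less scarce. Of these 5, 4 had fold changes from −1.51 to −0.13 in DMSO against T0, and guide 38730 of part A had 0 counts in both T0 aliquots and 0, 0 and 52 with DMSO. With guide 38681 left out, PRPF4 had a fold change of −0.76 ± 3.69 over 5 guides (exact RRA p = 0.379). Leaving out a gene's own strongest guide was tried after the data were seen, and it weakens any gene by construction.

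NHP2L1 binds the U4 RNA and starts the assembly of the U4/U6 particle (chromosome 22, 41673933 to 41690504). Its mean normalized count was 165 and 57.4 at T0 and 59.4, 49.9 and 38.4 with DMSO. DMSO replicate 1 lay above the lower T0 value on this scale, and the groups did not overlap on the mean log2 level. Its fold change was −1.89 ± 2.76 (exact RRA p = 0.00452, adjusted p = 0.375), it was −0.95 without T0 replicate 1, and p was 0.0429 without its strongest guide. PRPF3 and PRPF31 did not pass the unadjusted threshold.

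The LSm proteins 2 to 8 form a ring on the 3′ end of U6. Of the 6 measured here, 3 were on the low side at an unadjusted p under 0.05. They were LSM4, LSM5 and LSM7, with fold changes of −0.49, −1.45 and −0.88. LSM6 had the opposite sign, at 0.86, and did not pass on the high side.

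Of the 6 proteins that link the tri-snRNP or act in the B complex, the particle formed when the tri-snRNP joins, 5 had negative fold changes and 1 passed the unadjusted threshold. This was SMU1, a protein of the B complex (chromosome 9, 33041765 to 33076674), with the lowest fold change of all members. Its mean normalized count was 162 and 64.1 at T0 and 42.0, 22.9 and 26.6 with DMSO. The groups did not overlap, although the T0 aliquots differed more from each other than T0 replicate 2 did from DMSO. On the mean log2 level SMU1 was barely apart, at 4.131 in DMSO replicate 1 and 4.14 in T0 replicate 2.

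SMU1 had a fold change of −3.00 ± 2.80 (exact RRA p = 0.00045, adjusted p = 0.155), it was −0.45 without T0 replicate 1, and p was 0.0374 without its strongest guide. Of its 6 guides 5 were negative. Guide 45840 of part A went from raw counts of 272 and 242 at T0 to 9, 2 and 1 with DMSO. Guide 45838 of part A went from 455 and 64 to 5, 21 and 6. Both were thus scarce in every DMSO culture. The remaining guides were less even, and guide 45785 of part B had 116 and 0 at T0 and 112, 128 and 56 with DMSO.

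The core of the PRP19 complex had a median fold change of −0.37 over 4 genes, and 1 passed the unadjusted threshold. PRPF19, the ubiquitin ligase for which the complex is named (chromosome 11, 60890547 to 60906585), had mean normalized counts of 187 and 65.5 at T0 and 47.1, 57.0 and 37.4 with DMSO. The T0 aliquots both lay above the DMSO cultures on this scale, but on the mean log2 level T0 replicate 2 lay within their range. Its fold change was −1.45 ± 4.44 over 5 tested guides (exact RRA p = 0.00614, adjusted p = 0.416). Its value depended on the T0 aliquot used, since it was 1.54 without T0 replicate 1. CDC5L, PLRG1 and BCAS2 did not pass.

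Proteins that join with the PRP19 complex or bind the intron had a median of −0.65 over 7 genes, with 6 of them negative and 1 past the unadjusted threshold. BUD31 (chromosome 7, 99408641 to 99419616) had mean normalized counts of 134 and 111 at T0 and 49.8, 29.4 and 26.0 with DMSO. Here the T0 aliquots were close to each other and well above all DMSO cultures. All 5 tested guides were negative, at −1.29 ± 0.76 (exact RRA p = 0.0189, adjusted p = 0.608).

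The 4 DEAH-box helicases had the lowest median of any role group, −1.21, and 2 of them passed the unadjusted threshold. DHX38, which acts between the catalytic steps (chromosome 16, 72093613 to 72112912), had mean normalized counts of 109 and 157 at T0 and 54.4, 63.2 and 71.0 with DMSO. The groups did not overlap, and all 6 guides were negative. The fold change was −2.05 ± 2.23 (exact RRA p = 0.00163, adjusted p = 0.275), it was −0.89 without T0 replicate 2, and p was 0.00727 without the strongest guide.

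DHX15 releases the excised intron (chromosome 4, 24517441 to 24584554). Its mean normalized count was 121 and 28.0 at T0 and 13.0, 22.4 and 20.3 with DMSO, so T0 replicate 2 lay just above the DMSO cultures on this scale. On the mean log2 level it lay below all of them, at 2.54 against 2.99, 3.51 and 3.42. Of its 6 guides, 3 had a raw count of 0 in T0 replicate 2. The fold change was −1.81 ± 3.46 (exact RRA p = 0.0102, adjusted p = 0.505), and it was 1.20 without T0 replicate 1 and −2.72 without T0 replicate 2. DHX16, which acts before the first step, had a fold change of 0.69 ± 3.44.

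The second step factors differed in sign from the rest, with a median of 0.57 over 3 genes. CDC40, the member of this group with the lowest p on the low side (chromosome 6, 110180141 to 110254275), had a fold change of −0.27 ± 0.79 (exact RRA p = 0.326), with values of −0.66 (without DMSO replicate 2) to 0.09 (without T0 replicate 2) when single libraries were left out. PRPF18 and SLU7 had positive values, 0.57 and 0.92, and did not pass on the high side.

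**Figure D2:**
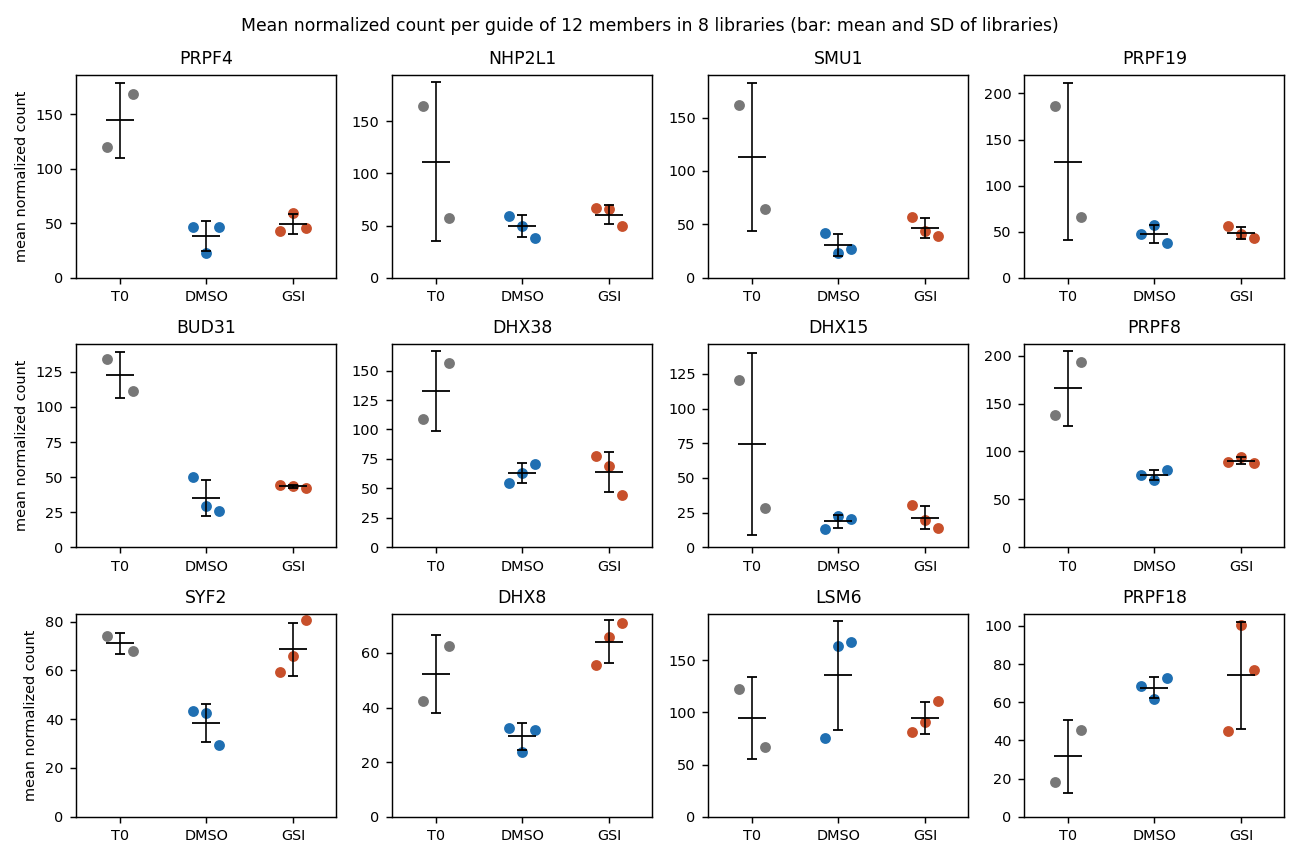
Mean normalized count per tested guide (vertical axis, from 0) of 12 members in each of the 8 libraries, in T0 (grey), DMSO (blue) and GSI (orange), with the mean and SD of the libraries. The T0 aliquots of BUD31 (134 and 111) lie close together, those of DHX15 (121 and 28.0) do not, and SYF2 and DHX8 are higher in all GSI than in all DMSO cultures.

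With GSI, the members were again mostly below T0, by a smaller median of −0.22 against −0.018 over all genes. This comparison shares its T0 aliquots with the one above. Of the 39 members, 29 (74.4%) had a negative fold change, against 51.3% of all genes. At an unadjusted p under 0.05, 10 members (25.6%) were on the low side, against 5.74% of all genes, and 1, PRPF18, was on the high side (2.56%, against 5.39%). The 10 were PRPF3, PRPF4, NHP2L1, LSM2, LSM4, SMU1, PRPF19, BUD31, DHX15 and DHX38. Without T0 replicate 1 the median was −0.05 for the members and 0.20 for all genes, with 6 members on the low side. Without T0 replicate 2 it was −0.24 and 0.08, with 10 members.

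RRA on edgeR guide tests called 0 members and 0 of all genes (0%). RRA on DESeq2 guide tests, edgeR on summed counts and limma also called 0 members. They gave 10, 15 and 5 members lower at a one-sided unadjusted p under 0.05, against 5.76%, 14.5% and 4.00% of all genes. Of the member guides, 18 (8.04%) were lower at an unadjusted p under 0.05, against 3.99% of all guides, and 7 (3.12%) were higher, against 4.72%. On the mean log2 level, 8 members (20.5%) were below both T0 aliquots in all GSI cultures, against 7.23% of all genes, and 4 (10.3%) were above both, against 30.5%. The level averaged over the members was 0.014, −0.138 and −0.202 in GSI replicates 1 to 3, between the T0 aliquots.

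The U4/U6 proteins gave 3 of the 10 members. PRPF3, the partner of PRPF4 (chromosome 1, 150321479 to 150353233), had mean normalized counts of 179 and 195 at T0 and 87.0, 115 and 68.7 in GSI replicates 1 to 3. The groups did not overlap and the T0 aliquots were close. Its fold change was −1.18 ± 0.86 over 5 guides, all negative (exact RRA p = 0.0138, adjusted p = 0.662). Without its strongest guide p was 0.12.

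PRPF4 itself had counts of 43.1, 59.6 and 45.6 with GSI, below both T0 aliquots on this scale. On the mean log2 level GSI replicate 2 lay above T0 replicate 1. Of its single guides, only 38681 was below both T0 aliquots in all GSI cultures. The fold change of PRPF4 was −0.42 ± 4.40 (exact RRA p = 0.000307, adjusted p = 0.238). It was −1.04 without T0 replicate 1, 0.16 without T0 replicate 2 and −0.85 without GSI replicate 2. As with DMSO, this p rested on guide 38681, the first of all guides on the low side, and was 0.591 without it. NHP2L1 had a fold change of −1.35.

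In the U6 ring, LSM4 (chromosome 19, 18306236 to 18323112) had mean normalized counts of 87.8 and 146 at T0 and 57.2, 76.6 and 82.2 with GSI. All GSI cultures were below T0, the highest by a small margin. Its fold change was −0.12 ± 1.94 (exact RRA p = 0.00591, adjusted p = 0.54), with 3 of 6 guides positive. The p came from a pair of guides, 27541 and 27542 of part A, with raw counts of 136 and 288 at T0 against 17, 13 and 27 with GSI, and of 194 and 209 against 27, 32 and 48. The median turned to 0.38 without the first of these. It ran from −0.40 (without T0 replicate 1) to 0.22 (without T0 replicate 2) when single libraries were left out, and was 0.07 without GSI replicate 1 and −0.33 without GSI replicate 2.

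PRPF19 had counts of 55.8, 47.7 and 43.0 with GSI, below both T0 aliquots on this scale but not on the mean log2 level, and a fold change of −1.40 ± 1.71 (exact RRA p = 0.0119, adjusted p = 0.644). It was 1.07 without T0 replicate 1 and −2.40 without T0 replicate 2. BUD31 had counts of 44.2, 43.9 and 42.0, below both T0 aliquots, and a fold change of −1.19 ± 0.76, again with all 5 guides negative (exact RRA p = 0.0195, adjusted p = 0.728). SMU1 had counts of 57.2, 43.8 and 39.0 and a fold change of −1.32 ± 1.14.

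The helicase DHX38 had the lowest fold change of the members with GSI, −2.10 ± 1.09, with all 6 guides negative (exact RRA p = 0.0021, adjusted p = 0.407). It was −0.88 without T0 replicate 2. Its mean normalized counts were 77.7, 68.7 and 44.6 in the GSI cultures, all below T0. It was the only gene of the 6 with the lowest p in this comparison that had an unadjusted p under 0.05 without its strongest guide, at 0.00891. DHX15 was at −1.84 ± 1.41.

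PRPF18, a second step factor (chromosome 10, 13586939 to 13668445), was the member on the high side, at 1.79 ± 3.60 (exact RRA p = 0.0279, adjusted p = 0.915). It was named after its values were seen. Its mean normalized counts were 18.1 and 45.2 at T0 and 44.9, 100.5 and 76.8 with GSI, so GSI replicate 1 overlapped T0. The T0 level was the lowest of all members. Guides 38710 of part A and 38660 of part B had raw counts of 2 and 20, and of 5 and 14, at T0, and 44, 145 and 114, and 34, 267 and 97, with GSI. Of its 6 guides, 2 were negative. Guide 38709 of part A went the other way, from raw counts of 17 and 54 at T0 to 1, 0 and 0 with GSI.

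**Figure D3:**
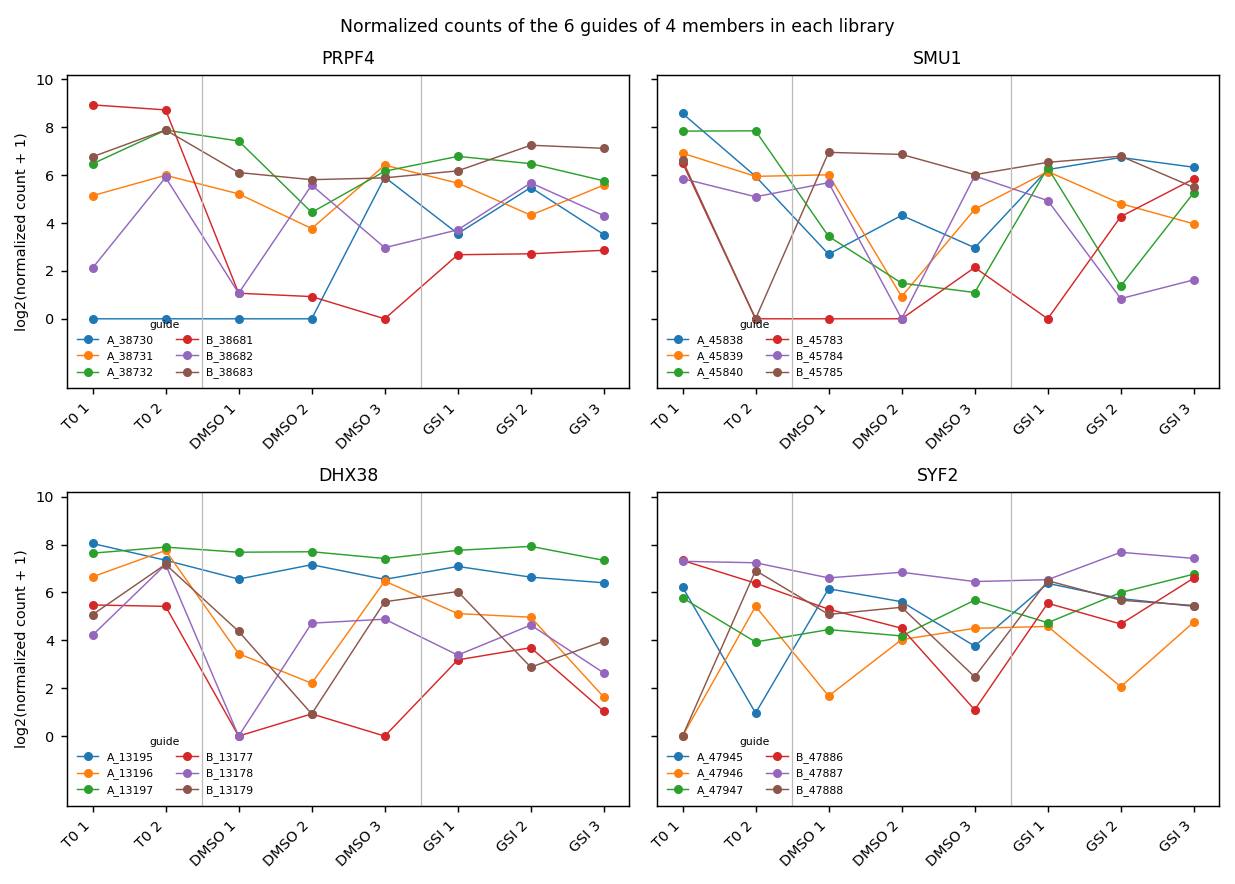
Normalized counts (vertical axis, log2 of the count plus 1) of the 6 guides of PRPF4, SMU1, DHX38 and SYF2 in the 8 libraries, where lines join values of the same guide and 0 marks no read. For PRPF4 guide 38681 falls from 487.8 and 421.4 normalized counts at T0 to 0 to 6.27 in the day 14 cultures, all 6 guides of DHX38 have a negative fold change against T0, and 4 of 6 guides of SMU1 and 6 of 6 of SYF2 have a positive one in GSI against DMSO.

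GSI against DMSO asks which genes the resistant cells need more, or less, when the inhibitor is present. Here the members leaned to the other side, with a median of 0.13 against −0.018 over all genes, and 13 of 39 (33.3%) were negative, against 52.7% of all genes. At an unadjusted p under 0.05, 5 members (12.8%) were on the high side, against 5% of all genes, and 0 on the low side, against 5.05%. The 5 were SMU1, SYF2, DHX8, SNRNP200 and PRPF19. This comparison shares its cultures with the 2 above, so a low DMSO value enters both the first comparison and this one.

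RRA on edgeR guide tests called 0 members and 0 of all genes (0%). RRA on DESeq2 guide tests, edgeR on summed counts and limma also called 0. They gave 5, 4 and 9 members higher at a one-sided unadjusted p under 0.05, against 5.12%, 3.34% and 7.46% of all genes. Of the member guides, 6 (2.68%) were higher, against 1.55% of all guides, and 1 (0.446%) was lower, against 1.46%. On the mean log2 level, 9 members (23.1%) were higher in all GSI than in all DMSO cultures, against 7.13% of all genes. Lower in all of them were 0 members, against 2.9% of all genes. With 3 against 3 libraries an exact permutation test cannot give a p under 0.1. When libraries were scaled by their totals, which the VPS33B guide inflates in GSI replicate 1, the median of all genes moved to −0.22 and that of the members to −0.06.

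SMU1 had the lowest p on the high side, with a fold change of 1.69 ± 2.40 (exact RRA p = 0.00028, adjusted p = 0.538). Its mean normalized counts were 42.0, 22.9 and 26.6 with DMSO and 57.2, 43.8 and 39.0 with GSI, which overlap by a small margin. On the mean log2 level SMU1 was barely apart, at 4.131 in DMSO replicate 1 and 4.137 in GSI replicate 2. Of its 6 guides, 4 were positive. Guide 45838 of part A had raw counts of 5, 21 and 6 with DMSO and 55, 133 and 76 with GSI. Guide 45840 of part A had 9, 2 and 1 against 58, 2 and 36, so it stayed scarce in 1 GSI culture. Without the strongest guide the fold change was 0.35 ± 2.54 (exact RRA p = 0.0072), and without GSI replicate 1 it was 0.89 over all guides.

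SYF2, a protein that joins with the PRP19 complex (chromosome 1, 25222276 to 25232502), had 6 positive guides of 6, at 0.90 ± 0.44 (exact RRA p = 0.00272, adjusted p = 0.747), and p was 0.0166 without the strongest guide. Its mean normalized counts were 43.5, 42.7 and 29.4 with DMSO and 59.5, 66.1 and 80.8 with GSI, and the groups did not overlap. At T0 they were 74.0 and 68.2, within the range of the GSI cultures, while on the mean log2 level all GSI cultures lay above both.

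DHX8, the helicase that releases the spliced mRNA (chromosome 17, 43483865 to 43610338), had mean normalized counts of 32.7, 23.8 and 31.9 with DMSO and 55.5, 65.8 and 71.0 with GSI. Again the groups did not overlap. Its fold change was 0.86 ± 1.31 over 5 guides (exact RRA p = 0.00371, adjusted p = 0.761). Much of this came from guide 13208 of part A, with raw counts of 21, 25 and 4 against 77, 170 and 121, and p was 0.158 without it. The fold change was 0.37 without GSI replicate 2. At T0 the mean normalized counts of DHX8 were 42.3 and 62.4.

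SNRNP200, the helicase that unwinds U4 from U6 (chromosome 2, 96274338 to 96321271), had a fold change of 0.52 ± 0.92 (exact RRA p = 0.0284, adjusted p = 0.967), and 0.34 without DMSO replicate 2. Its mean normalized counts were 113, 78.2 and 127 with DMSO and 116, 97.7 and 195 with GSI, so the groups overlapped. PRPF19 had 0.15 ± 3.11 (exact RRA p = 0.0365, adjusted p = 0.967), and its counts of 47.1, 57.0 and 37.4 and of 55.8, 47.7 and 43.0 overlapped too, though not on the mean log2 level. Its sign turned without GSI replicate 1, to −0.19. Its p came from guide 38664 of part B, with raw counts of 0, 0 and 0 with DMSO and 2, 46 and 6 with GSI, and was 0.222 without that guide.

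On the low side no member passed the unadjusted threshold. The lowest p was that of LSM6 of the U6 ring (chromosome 4, 146175703 to 146200000), with a fold change of −0.35 ± 0.42 over 4 guides (exact RRA p = 0.103), and −0.54 without DMSO replicate 3. Its mean normalized counts were 75.3, 164 and 168 with DMSO and 81.5, 91.2 and 111 with GSI, which overlap. LSM2 of the same ring and SNRNP40 of the U5 particle followed, with fold changes of −0.09 ± 2.06 (exact RRA p = 0.198) and −0.40 ± 0.72 (exact RRA p = 0.219). With single libraries left out, LSM2 ran from −0.40 (without DMSO replicate 3) to 0.73 (without DMSO replicate 2), and SNRNP40 from −0.56 (without GSI replicate 1) to −0.10 (without DMSO replicate 2).

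**Figure D4:**
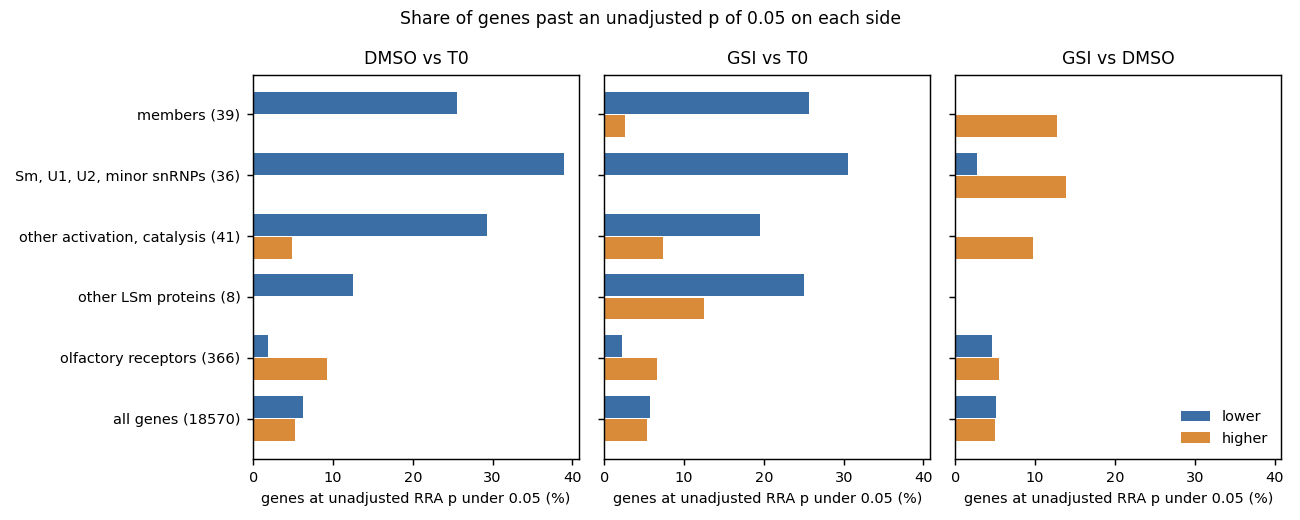
Share of genes at an unadjusted RRA p under 0.05 on the low side (blue) and the high side (orange) for the members, 3 lists of other splicing and LSm genes, olfactory receptors and all genes, in the 3 comparisons. Members and the other splicing lists lie above all genes on the low side against T0. On the high side of GSI against DMSO, members lie at 12.8% and all genes at 5%. The Sm, U1, U2 and minor spliceosome list lies there at 13.9%, other activation and catalysis factors at 9.76% and other LSm proteins at 0%.

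Other splicing genes were looked at from lists made with the members. The Sm, U1, U2 and minor spliceosome proteins had a median of −0.69 in DMSO against T0, with 14 of 36 genes lower at an unadjusted p under 0.05 and 0 higher. Other factors of activation and catalysis had a median of −0.32, with 12 of 41 lower and 2 higher. With GSI against T0 the counts were 11 of 36 lower and 0 higher, and 8 of 41 lower and 3 higher. In GSI against DMSO they were 5 of 36 higher and 1 lower, and 4 of 41 higher and 0 lower. Of all genes, 6.19% were lower and 5.28% higher in DMSO against T0, and 5.74% and 5.39% in GSI against T0. In GSI against DMSO 5.05% were lower and 5% higher. Medians of the lists, in the same order, were −0.30 and −0.31 in GSI against T0, where that of the members was −0.22. In GSI against DMSO they were 0.28 and 0.07, where that of the members was 0.13. None of the genes on these lists was called. Whether the members differ from these lists was not tested.

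Among these genes, SNRNP25 of the minor spliceosome had the lowest adjusted p with GSI against T0, 0.09, at a fold change of −2.55 ± 1.54. With DMSO against T0 it was at −1.90 ± 2.25 (adjusted p = 0.168). EIF4A3, the helicase of the exon junction complex, was at −2.45 ± 2.29 with DMSO (adjusted p = 0.127). SF3B1 and SF3B4 of the U2 particle were at −2.45 ± 1.87 (adjusted p = 0.267) and −1.98 ± 1.56 (adjusted p = 0.299). SRRM2 and GPKOW were at −1.94 ± 1.51 (adjusted p = 0.394) and −1.05 ± 1.97 (adjusted p = 0.413).

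Of 8 other LSm proteins, 1 was lower at an unadjusted p under 0.05 in DMSO against T0, LSM11 of the U7 particle, at −1.54 ± 1.15 (adjusted p = 0.506). In GSI against T0, 2 were lower and 1 higher, and in GSI against DMSO 0 passed on either side. The shares of all genes are those given above. The library also held guides named NAA38, a symbol that RefSeq gives as an older name of LSM8 and as the present name of LSMD1, which had guides of its own. The guides named NAA38 were at −1.05 ± 1.31 in DMSO against T0 (exact RRA p = 0.0513) and −1.21 ± 1.31 in GSI against T0 (exact RRA p = 0.00387, adjusted p = 0.482). Those named LSMD1 were at −0.63 ± 2.12 and −1.12 ± 2.08. Which of these genes the guides named NAA38 target was not settled by the count table, and they were not counted as members.

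The library was made as parts A and B with separate guides for each gene, which allows the members to be read from each part alone. In DMSO against T0 the median over member guides was −0.54 for the 111 tested guides of part A and −0.61 for the 113 of part B, against −0.06 and 0.05 over all guides to genes. Of the 39 genes, 21 had a negative median in both parts and 3 a positive one. In GSI against T0 the medians were −0.36 and −0.51, against −0.03 and −0.02 over all guides to genes. Here 15 genes were negative in both parts and 6 positive. In GSI against DMSO the medians were 0.15 and 0.06, against 0.03 and −0.08 over all guides to genes. Here 11 genes were positive in both parts and 4 negative. Such counts in both parts were not made over all genes.

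**Figure D5:**
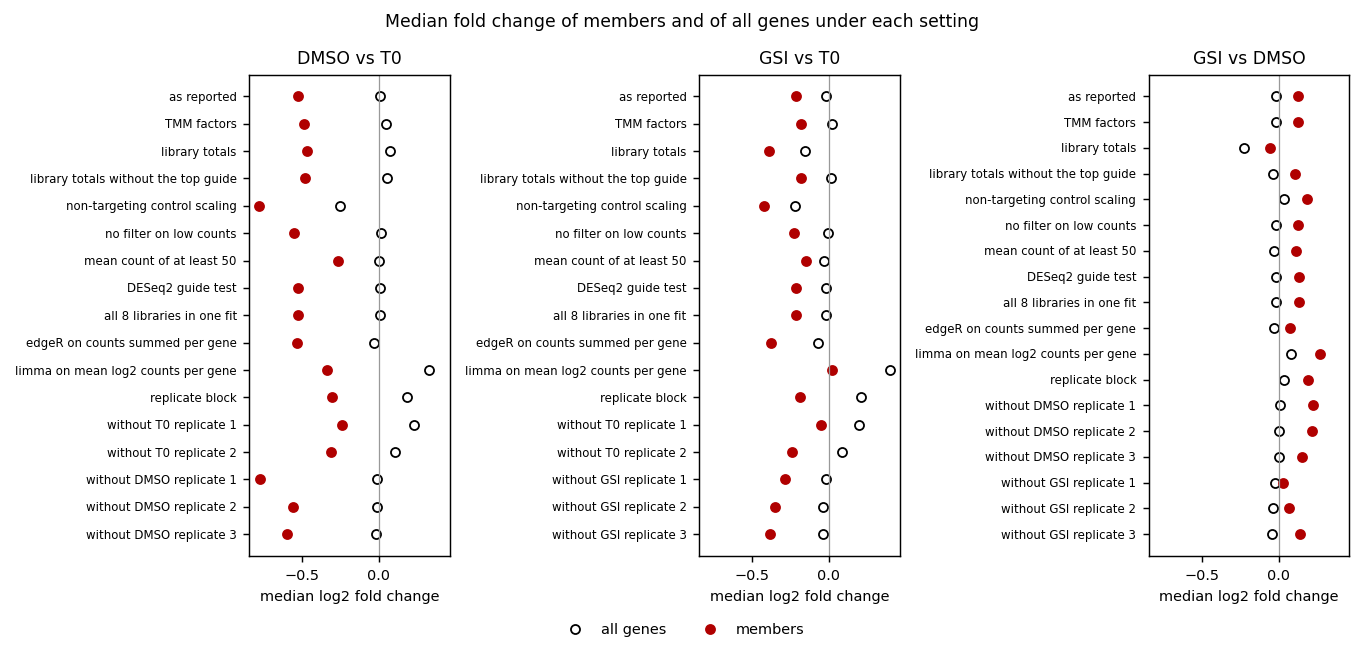
Median log2 fold change (horizontal axis) of the members (filled) and of all genes (open) in each comparison, as reported and under each other setting or with a library left out (rows). The members' median lies below that of all genes in every row against T0 and above it in every row of GSI against DMSO, and its own sign turns with limma in GSI against T0 (0.02) and with library totals in GSI against DMSO (−0.06).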

How the data were processed

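Guide abundance was measured by sequencing PCR products of genomic DNA. The submitters' processing notes name bcl2fastq 2.19, FastQC 0.11.5 and MAGeCK 0.5.9.2, with which the authors made raw counts per guide. The deposited table of raw counts was used. The deposited normalized signal, the count scaled per library, served only as a check. Guide sequences were not used here. The libraries held 12.1 M to 18.2 M counts.

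Counts were tested per guide with edgeR 4.0.16 (glmQLFit, R 4.3.3) on median-ratio size factors, with only the 2 groups compared in each fit. Two-sided guide p-values were made one-sided and ranked over all guides to genes, and RRA was written anew, with an alpha of 0.25 and exact p-values. It was run on simulated counts with a fixed spread between libraries. These did not carry the gap between the T0 aliquots, so its performance on such data was not tested. Adjustment was by Benjamini-Hochberg. Alternatives were DESeq2 1.42.0, limma 3.58.1, edgeR on summed counts, other scalings and filters, a replicate block and leaving out libraries. For summed counts and limma, genes lower or higher at an unadjusted p under 0.05 were counted by one-sided p-values. Their calls used two-sided p-values. Gene positions are from GENCODE on GRCh38. The positions of the guides were not used here.

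The members and lists were chosen with earlier results of these data known. Named are the 6 members of lowest p on the low side against T0 with DMSO and with GSI. From GSI against DMSO come the 5 of lowest p on the high side and the 3 of lowest p on the low side. Added are 1 member of any role group left and 3 genes of each other list. Any other gene was named after its values were seen.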

Additional observations from a re-analysis of the deposited data

How the results depend on the processing

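Of the results on all members, 194 alternative values kept their direction and lay near the reported value, 31 moved and 2 turned. In DMSO against T0, edgeR on summed counts called 1 member, PRPF4 (−1.91, adjusted p = 0.0246, 0.0246 to 1 over its alternatives), and 101 of all genes. The sum of PRPF4 included its guide 38681 and was not refitted without it. Members lower at a one-sided unadjusted p under 0.05 numbered 17 with summed counts, against 12.3% of all genes. At a mean count of at least 50 they numbered 6 of 24, against 5.67% of all genes. Lower guides numbered 45 with DESeq2, against 7.62% of all guides. In GSI against T0, members lower numbered 5 with limma (4.00% of all genes) and 2 of 24 at the stricter filter (5.43%). Lower guides numbered 35 with DESeq2 (8.40% of all guides). The median turned to 0.024 with limma, where that of all genes was 0.402. At that filter, members below T0 without overlap numbered 6 with DMSO and 5 with GSI (9.79% and 9.28% of all genes). In GSI against DMSO, members higher numbered 0 of 24 at the stricter filter, against 5.11% of all genes. They numbered 8 with all 8 libraries in one fit (5.2%) and 9 with limma (7.46%). Higher guides numbered 3 at the stricter filter, against 1.56% of all guides. The median was 0.269 with limma and −0.055 with library totals. Members without overlap numbered 4 with totals, against 0.555% of all genes. At the stricter filter they numbered 1 of 24, against 5.77% of all genes. The cause of these shifts was not tested.

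Leaving out each library in turn gave 6 (without T0 replicate 1) to 10 members lower in DMSO against T0, 18 (without DMSO replicate 3) to 37 lower guides, and 12 to 28 members without overlap (16 and 28 without T0 replicates 1 and 2, where the share of all genes was 19.3% and 26.9%). In GSI against T0 it gave 6 (without T0 replicate 1 or GSI replicate 3) to 11 members, 11 (without GSI replicate 3) to 40 guides (35 and 40 without T0 replicates 1 and 2), and 8 to 23 members without overlap (13 and 23 without T0 replicates 1 and 2, against 18.7% and 26.1% of all genes). Without a single DMSO library, 2.33% to 2.71% of all guides were lower in DMSO against T0. Without a single GSI library, 2.12% to 2.49% were lower in GSI against T0. Without T0 replicate 1 or 2, the share of all guides rose above that with all libraries, 3.55% and 3.99%. The rise in lower member guides there was thus not particular to the members. Those fits leave 1 T0 library. The share of all genes lower stayed near 6.19% and 5.74%. In GSI against DMSO, leaving out each library gave 3 members higher without DMSO or GSI replicate 3 (5.09% and 5.26% of all genes). It gave at most 6, without GSI replicate 2 (5.02% of all genes). Medians ran from 0.027 (without GSI replicate 1) to 0.225. Signs turned for PRPF4 without T0 replicate 2 (range −1.547 to 0.179 with DMSO, −1.037 to 0.161 with GSI), PRPF19 without T0 replicate 1 (−2.1 to 1.539 and −2.398 to 1.074), DHX15 without T0 replicate 1 (−2.723 to 1.202), LSM4 without T0 replicate 2 or GSI replicate 1 (−0.403 to 0.22, and 0.382 without its strongest guide) and CDC40 without T0 replicate 2 (−0.655 to 0.091). In GSI against DMSO they turned for PRPF19 without GSI replicate 1 (−0.192 to 0.424; −0.19 with library totals) and LSM2 (−0.402 to 0.734 without single libraries; 0.11 with limma, 0.617 as a mean over guides, 0.213 without its strongest guide).

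Replicate numbers were not shown to pair the cultures: deviations of DMSO and GSI cultures of the same number correlated at 0.28, 0.064 and 0.121, each the highest for its cultures, which is a hint from the data and not from the design. With the replicate block, lower member guides numbered 12 in DMSO against T0, where 1.39% of all guides were lower. In GSI against T0 they numbered 5, where 1.02% of all guides were lower. Members lower in GSI against T0 numbered 5, against 5.70% of all genes. T0 has no replicate 3, so with the block replicate 3 does not enter the fold changes against T0.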
